A study of Caenorhabditis elegans with 32 samples.

Results

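The effect of losing the histone methyltransferase MET-1 on the transcripts of young adult Caenorhabditis elegans was examined by comparing double mutants, met-1(n4337); glp-1(e2141), with single mutants, glp-1(e2141), both at day 2 of adulthood. Each group comprised 2 libraries of poly-A selected mRNA from whole animals, 4 of the 32 samples in the series. Both strains were kept as stocks at 16 °C, and the animals were hatched and cultured at 25 °C on OP50 bacteria. Both therefore carried glp-1(e2141), a temperature-sensitive allele of the germline Notch receptor that prevents most germ cells from forming at the restrictive temperature. Of 46971 RefSeq transcripts in both tables, 45859 had an accepted estimate in both groups, and 18090 of these reached 1 FPKM (fragments scaled by transcript length and by the mapped fragments of the library) in at least one group and form the comparison. They comprise 16454 protein-coding and 1636 non-coding identifiers. Gene symbols could be attached to 17006 of them.

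MET-1 adds methyl groups to lysine 36 of histone H3, a mark laid down over the bodies of transcribed genes. In C. elegans a second enzyme, MES-4, places the same mark in the germline, and the chromodomain protein MRG-1 and the demethylase JMJD-2 are connected with reading and removing it. A glp-1 background is used in ageing studies because nearly all of the RNA then comes from somatic cells, and because animals without a germline live long.

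The tables hold 1 FPKM value per group for both libraries together, so no spread between the libraries of the mutant or of the control can be computed, and no test compares the 2 strains. A transcript is called higher or lower where its log2(FPKM + 1) differed by 2-fold or more after the median difference over all transcripts, 0.17 in favour of the mutant, was subtracted. All differences below are on this log2(FPKM + 1) scale relative to that median, which understates the difference of transcripts with few reads. Further glp-1 animals of the same age were placed beside the pair, namely 2 libraries given the L4440 vector, 2 libraries labelled met-1 RNA interference, and an untreated group with 1 pooled value. These values come from separately normalised tables. Levels set beside each other across tables were not tested.

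The allele was checked first at met-1 itself. Transcript NM_058939 of met-1 was at 4.63 FPKM in the control and 3.30 in the mutant, and NM_182042 was at 0.781 and 3.37. Their sum was 5.41 FPKM in the control and 6.67 in the mutant, so met-1 mRNA was not depleted in the mutant libraries. The labels do not say which part of the gene the allele alters, so these levels do not check the genotype. The other genes of the mark differed by less than 2-fold. The methyltransferase gene set-18 was at 9.99 FPKM in the control and 16.9 in the mutant, the mrg-1 transcripts summed to 18.4 and 22.1, and jmjd-2 was at 4.79 and 5.21. For mes-4 the values were 0.464 and 0.875 FPKM, below the filter. Of 58 transcripts of histone lysine methylation genes, met-1 NM_182042 was the 1 called higher (1.72%, beside 8.62% over all transcripts) and 0 were called lower.

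Across the transcriptome 1559 transcripts (8.62% of those compared) were called higher in the mutant and 1004 (5.55%) were called lower. Higher transcripts thus made up 60.8% of the calls, but this share ran from 52.9% after quantile normalisation through 71.9% without centring to 74.0% after scaling both groups to equal summed FPKM. Calls were concentrated among weakly expressed and non-coding transcripts. Of the non-coding identifiers 31.1% were higher and 24.1% lower, against 6.39% and 3.71% of the protein-coding ones. The share called higher declined from 18.95% of transcripts with a mean of at most 1 FPKM to 2.10% of those over 100 FPKM. The share called lower was 12.1% in the lowest of these classes, 3.50% between 10 and 30 FPKM and 4.84% over 100 FPKM, where 106 transcripts were lower and 46 higher. In the control, 1086 of the 1559 higher transcripts were under 1 FPKM. Among the 15187 transcripts at 1 FPKM or more in both strains the calls were even, with 473 (3.11%) higher and 470 (3.09%) lower. By chromosome the share called higher was between 7.36% on III and 9.53% on V, and the share called lower between 3.61% on III and 7.45% on V.

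**Figure D1:**
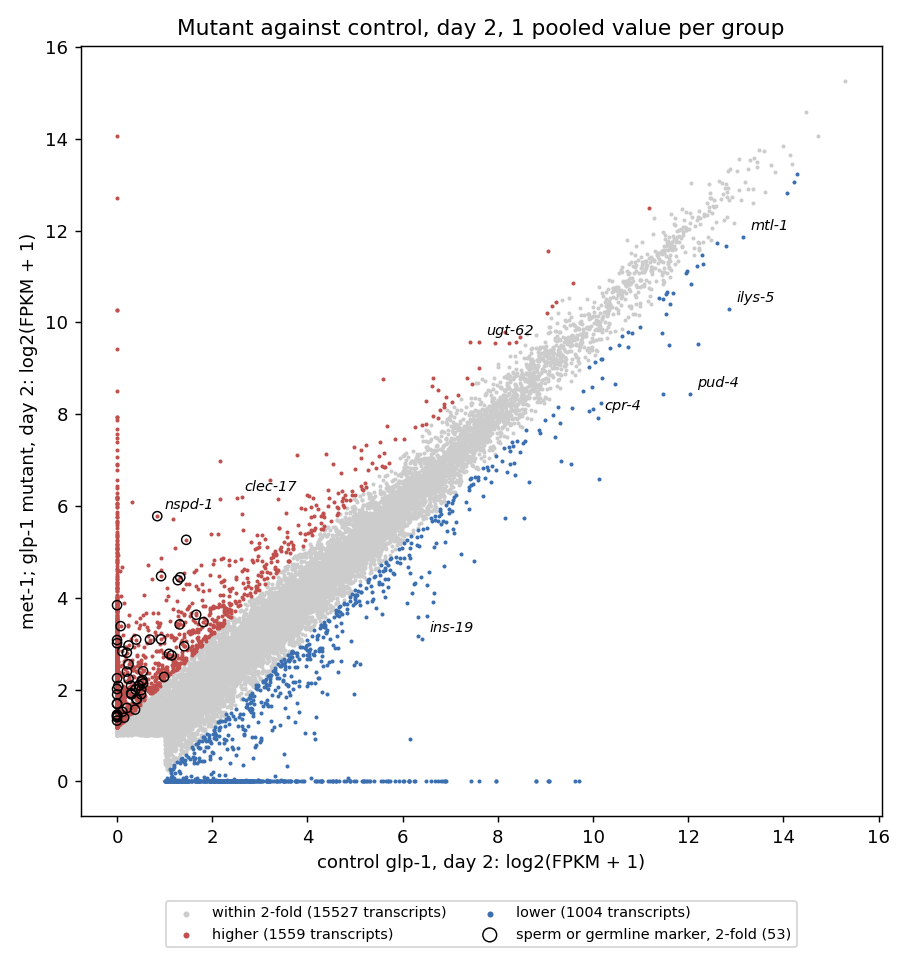
Each point is a transcript, with log2(FPKM + 1) of the control on the x axis and of the mutant on the y axis. Red and blue points are the 1559 higher and 1004 lower transcripts, circles are the 53 sperm or germline markers among the higher ones, which lie at the low end, and pud-4, ilys-5 and mtl-1 are among the lower transcripts at the high end.

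The size of this difference was compared with differences between libraries of 1 group. The 2 L4440 libraries differed by 2-fold or more in 12.4% of the same transcripts and the 2 met-1-labelled libraries in 10.2%, against 14.2% between mutant and control. For protein-coding transcripts the shares were 10.96%, 8.82% and 10.1%. In the 12240 transcripts that the untreated table also holds, mutant and control differed 2-fold in 7.36%, whereas the untreated animals and the control, which carry the same genotype, differed in 12.998%. Single libraries were compared in the first case and pooled values in the others. The number of calls was therefore of the same order as between samples of 1 genotype. The other animals are given beside many of the genes below, and where only control and mutant are given this check is not shown. The mutant lay outside the range of the control and both L4440 libraries for 1215 (77.9%) of the higher transcripts and for 818 (81.5%) of the lower ones. It lay outside that range by 2-fold or more for 872 and 302. At the edge of the call, F22E5.6 was higher by 1.00 (0.777 FPKM in the control, 3.01 in the mutant), and vps-39, at 0.000670 and 1.25 FPKM, fell just short of it. At the edge of the filter, ptrg-1 entered with a highest value of 1.00 FPKM, and Y50E8A.12 stayed out just below the limit.

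Sperm and germline transcripts were higher in the mutant, although both strains carry the allele that removes most of the germline. Of 97 sperm marker transcripts with an accepted estimate, 58 were at 1 FPKM or more in the mutant, against 23 in the control, 22 in each L4440 library, and 23 and 22 in the met-1-labelled libraries. In the untreated table, which holds 40 of them, the number was 19. At day 12 it was 26 in the mutant and 16 in the control. The summed level of the list was 766 FPKM in the mutant and 373 in the control, and lay between 330.2 and 372 FPKM in the 4 libraries of the RNA interference experiment. The mutant thus stood apart from all 5 other day 2 values of the full list, which were close to one another.

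Among the 59 sperm transcripts that passed the filter, 40 were called higher and 0 lower, with a median difference of 1.36. Of these 59, 36 passed the filter through the mutant alone, so this count cannot be set against the share over all transcripts. Over the 85 sperm transcripts detected in either strain, without a filter, 75 were above the control and the median was 0.83. Among the 22 at 1 FPKM or more in both strains 6 were higher, with a median of 0.14. All 40 transcripts called higher lay above the control and both L4440 libraries, 29 of them by 2-fold or more. That they lie above the control follows from the call itself. Over all transcripts called higher, 77.9% lay above these values and 55.9% by 2-fold or more.

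The sperm transcripts with the greatest differences encode small structural proteins. The nspd genes belong to a nematode-specific peptide family made in sperm. nspd-1 was at 0.796 FPKM in the control, 1.93 and 3.96 with L4440, 4.01 and 1.94 in the met-1-labelled libraries and 53.9 in the mutant, a difference of 4.76. nspd-2 was at 1.74, 5.79, 3.96, 2.00, 1.94 and 37.4 FPKM in the same order, and differed by 3.64. For both genes the mutant value was far above all others, and 8 of the 9 nspd transcripts compared were called higher, of which 3 were at 1 FPKM or more in both strains. The msp genes encode the major sperm protein, which drives the crawling of nematode sperm and signals to oocytes. Of 17 msp transcripts compared 16 were called higher, but 15 of the 17 passed the filter through the mutant alone, so the count is no more than a description. Their levels remained low, such as 0.154 FPKM for msp-77 in the control and 5.98 in the mutant. Genes of spermatogenesis outside these families were among the higher ones too. spe-19, needed for sperm activation, was at 0.0791 and 6.12 FPKM, and gsp-4, a sperm phosphatase gene, at 0.423 and 2.97. Copies of the msp and nspd families are nearly identical, so the division of reads among them is uncertain, and spe-19 and gsp-4, like other list members cited here as examples outside the largest 2 each way, were chosen after their values were seen.

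Germline and oocyte markers were likewise detected in larger number in the mutant. Their summed level was 484 FPKM in the control and 911 in the mutant. Of 59 transcripts 44 were at 1 FPKM or more in the mutant, against 24 in the control, 21 and 17 with L4440, and 19 and 18 in the met-1-labelled libraries. Of the 44 compared, 13 were called higher and 0 lower, with a median of 0.83, but 20 of the 44 passed the filter through the mutant alone, so this count too cannot be set against the 8.62% over all transcripts. With no filter the median was 0.59, and among the 24 at 1 FPKM or more in both strains 3 were higher, with a median of 0.23. The P granule gene deps-1 was at 0.0532 FPKM in the control, 0 and 0.0830 with L4440, 0.0841 and 0.162 in the met-1-labelled libraries and 9.43 in the mutant. mex-5, which encodes an RNA-binding protein that sets the polarity of the zygote, was at 1.49, 0.669, 0.914, 0.694, 0.559 and 9.70 FPKM in that order. Both mutant values were separate from the others. The oocyte RNA-binding protein genes oma-1 (0.419 FPKM in the control, 2.73 in the mutant), puf-5 (0.233 and 2.72) and pos-1 (0.447 and 3.62) were also called higher, as was mex-3 (2.17 and 11.4 FPKM for NM_058280). The Argonaute gene wago-1, which acts with small RNAs in the germline, was at 1.26 and 4.28 FPKM. Transcripts of glp-1 itself were at 3.88 FPKM in the control and 8.81 in the mutant, within the range of 2-fold once the median was subtracted.

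Other tissues of the gonad and the embryo did not show this. Of 13 gonad sheath and spermatheca markers and of 14 embryo markers 0 were called, with medians of -0.01 and -0.14. sip-1, a small heat shock protein gene known for its expression in oocytes and embryos, stood at 0.575 FPKM in the control, between 0.252 and 1.46 in the 4 libraries of the RNA interference experiment, and at 25.1 in the mutant. Histone genes had 6 higher and 2 lower of 31, among them his-61 (0.950 FPKM in the control, 1.86 and 3.05 with L4440, 5.56 in the mutant). Of the 31, 10 passed the filter through the mutant alone, so this count cannot be set against the share over all transcripts. Among the 20 at 1 FPKM or more in both strains 0 were higher and 1 lower, with a median of 0.05. The histone median of 0.33 over all 31 became -0.22 where 10 FPKM was required in one group. In whole animals, more cells of a type and more RNA per cell cannot be told apart. Leaving out the germline, sperm and embryo markers left 1507 transcripts higher and 1003 lower, and the part of germ cells in the other differences was not tested.

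**Figure D2:**
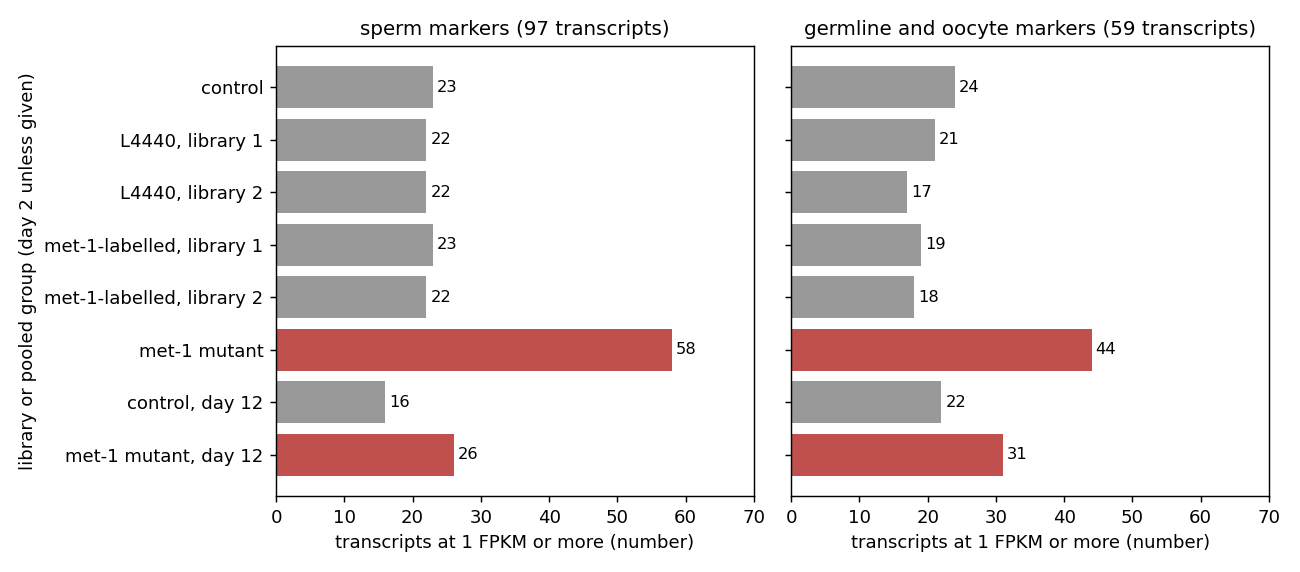
Bars give the number of sperm markers (left, of 97) and of germline and oocyte markers (right, of 59) at 1 FPKM or more in each library or pooled group. The day 2 mutant has 58 and 44, above 22 to 23 and 17 to 24 in the day 2 libraries and control shown (the untreated table holds only a part of the lists and is not drawn), and at day 12 the mutant has 26 and 31 against 16 and 22 in the control.

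Effectors of innate immunity, many of them made in the intestine, were called lower in the mutant more often than higher. The list of lysozymes, saposin-like proteins and antimicrobial peptides, which also holds pathogen-response genes named for it (irg, dod), had 28 of 128 transcripts lower and 6 higher. Lower transcripts thus made up 21.9% of the list, beside 5.55% over all transcripts, and 26 of the 28 were at 1 FPKM or more in both strains. The list median was -0.23, but -0.05 without centring and 0.00 after scaling to equal summed FPKM, so the list as a whole shifted little and the calls came from a subset. Between the 2 L4440 libraries the median of the same transcripts differed by 0.27, which is as large a step. Of the 28 lower transcripts, 20 were below the control and both L4440 libraries and 13 by 2-fold or more, beside 81.5% and 30.1% over all transcripts called lower.

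The lower immune effectors included some of the most abundant transcripts of the animal. Saposin-like proteins such as SPP-5 kill bacteria by opening their membranes. spp-5 was at 17341 FPKM in the control, 14372 in the untreated group, 10433 and 16474 with L4440, 8638 and 8906 in the met-1-labelled libraries and 7191 in the mutant. The lysozyme gene lys-8 was at 3283, 3251, 2032, 2619, 1892, 1865 and 1605 FPKM in the same order. In both the mutant was lowest, and all 4 libraries of the separately normalised RNA interference table lay between the mutant and the control. The invertebrate-type lysozyme gene ilys-5 summed to 12142 FPKM in the control and 1983 in the mutant over 2 transcripts, but in the L4440 libraries its transcript NM_001029424 was at 431 and 1186 FPKM, below the 1244 of the mutant. The untreated group had this transcript at 0.751 FPKM. The control was thus the highest value and the untreated group the lowest, and the mutant lay between them. lys-7 was at 4295 FPKM in the control and 1831 in the mutant, with 2235 and 6095 in the L4440 libraries. The thaumatin-like gene thn-2, at 1417 and 405 FPKM, and irg-3, at 211 and 96.7, were below all 4 libraries of the RNA interference experiment. A few antimicrobial peptide genes went the other way. The fipr-17 transcript was listed at 0 in the control and in those 4 libraries and was at 2.87 FPKM in the untreated group and 13.8 in the mutant.

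C-type lectins, secreted and membrane proteins that respond to microbes, were called in both directions, with 10 of 96 higher (10.4%, beside 8.62% over all transcripts) and 11 lower (11.5%, beside 5.55%). Of the 96, 11 passed the filter through the mutant alone, so the number higher cannot be set against the share over all transcripts. Among the 80 at 1 FPKM or more in both strains 4 were higher and 10 lower. Over all such transcripts 3.11% were higher and 3.09% lower. Without centring 12 of the 96 were higher and 5 lower, and with equal summed FPKM 13 and 4. clec-17 was at 4.73 FPKM in the control, 26.9 in the untreated group, between 0.0640 and 0.394 in the RNA interference experiment and 70.8 in the mutant. clec-53 was at 42.6 FPKM in the control and 12.7 in the mutant, but at 8.38 and 8.28 in the met-1-labelled libraries.

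Lysosomal proteases and lipases, which digest material inside intestinal cells, were called in both directions. Of 26 cathepsin and aspartyl protease transcripts 7 were lower (26.9%, beside 5.55% over all transcripts) and 2 higher, with a median of -0.42. The number lower was 3 where 10 FPKM was required, 4 with a pseudocount of 5 or with equal summed FPKM, and 5 without centring. asp-4, at -1.03, and asp-3 were at the edge of the call. The cathepsin B-like gene cpr-4 was at 1094 FPKM in the control, 795 in the untreated group, 944 and 1428 with L4440, 697 and 1016 in the met-1-labelled libraries and 242 in the mutant, a difference of -2.34. A related gene, cpr-5, was in the opposite position, at 169 FPKM in the control, 72.7 in the untreated group, between 129 and 291 in the RNA interference experiment and 762 in the mutant. For both genes the mutant was separate from every other day 2 value. The aspartyl protease gene asp-17 was at 99.8 FPKM in the control and 16.2 in the mutant, while the untreated animals were at 18.7. Among 155 fatty acid and lipase transcripts 16 were lower (10.3%, beside 5.55% over all transcripts) and 6 higher (3.87%, beside 8.62%), with a median of -0.27. They included lipl-5, a lysosomal lipase gene, whose transcripts summed to 3106 FPKM in the control and 973 in the mutant. They also included fat-5, a stearoyl-CoA desaturase gene, at 1013 and 384 FPKM, with 1016 in the untreated group and 1768 and 2321 in the L4440 libraries. dhs-25, a short-chain dehydrogenase gene, was higher, at 281 and 883 FPKM. Without centring the calls of this list were even, at 11 each way.

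**Figure D3:**
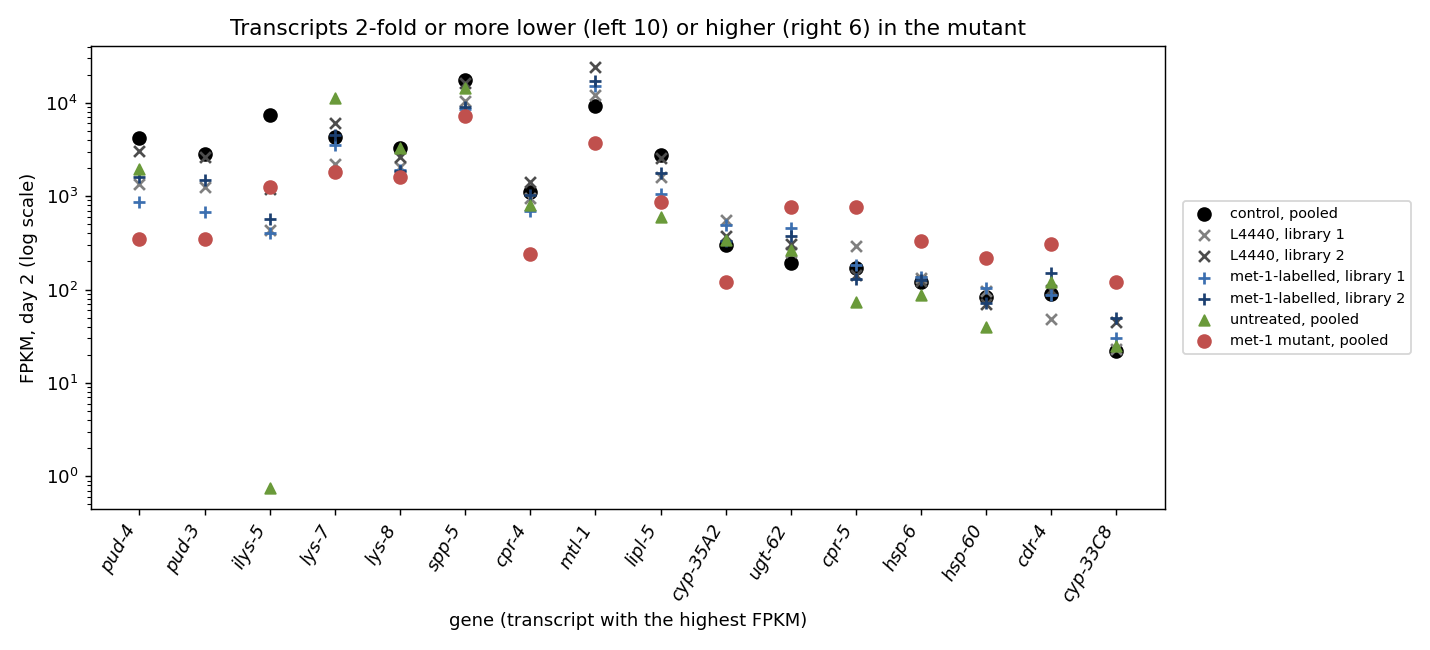
FPKM at day 2 on a log scale for 16 genes, the transcript with the highest value each. Red circles are the mutant, black circles the control, and crosses, plus signs and triangles are the L4440, met-1-labelled and untreated animals; cpr-4, mtl-1 and cyp-35A2 have the mutant below all others, cpr-5, hsp-6 and cyp-33C8 above, whereas ilys-5 (NM_001029424) has the control above the rest.

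Among the 12 protein-coding genes with the widest lower differences, of those above 0 in both strains and at 10 FPKM or more in one, were pud-3 and pud-4 of chromosome V. They are named for proteins found upregulated in daf-2 insulin receptor mutants, and they lie at a shared locus, so reads may be divided between them. pud-4 was at 4217 FPKM in the control, 1942 in the untreated group, 1361 and 3035 with L4440, 867 and 1589.9 in the met-1-labelled libraries and 347 in the mutant, a difference of -3.77. The mutant was lowest, but the values of the same-genotype animals spanned 1361 to 4217. pud-3 was at 2820.0 and 347 FPKM. ins-19, an insulin-like peptide gene, was at 84.2 FPKM in the control, 100.3 in the untreated group, 59.0 and 119.8 with L4440, 43.4 and 95.6 in the met-1-labelled libraries and 7.60 in the mutant. comt-4, of the catechol O-methyltransferase family, was at 98.9 and 13.99 FPKM, with at least 243 in the L4440 libraries. The mutant was the lowest value for all 4 genes. The 36 insulin-like peptide transcripts as a list had 3 higher (8.33%, beside 8.62% over all transcripts) and 4 lower (11.1%, beside 5.55%). Of 73 transcripts of insulin, TOR and steroid longevity signalling 1 was called each way, which is 1.37% for either direction.

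Detoxification genes were called in both directions, and which direction held more calls depended on the centring. Of 61 cytochrome P450 transcripts 12 were lower (19.7%, beside 5.55% over all transcripts) and 8 higher (13.1%, beside 8.62%), with a median of -0.43. Without centring 7 were lower and 9 higher. Of 8 transcripts of cyp-35 genes, which are known to respond to foreign compounds and were grouped after their values were seen, 4 were lower and 0 higher. cyp-35A2 was at 303 FPKM in the control, 337 in the untreated group, 549 and 374 with L4440, 495 and 331 in the met-1-labelled libraries and 120.2 in the mutant. Neighbours in name went opposite ways. cyp-14A3 was at 14.4 FPKM in the control and 1.08 in the mutant, and cyp-14A2 at 29.01 and 7.29, whereas cyp-14A4 was at 1.64 and 22.2, with at most 3.61 in any other day 2 library. cyp-33C8 was also higher, at 22.2 and 120.5 FPKM. Of 63 UDP-glucuronosyltransferases, which attach a sugar to compounds for excretion, 7 were lower (11.1%) and 4 higher (6.35%), but 3 and 7 without centring. ugt-62 was at 193 FPKM in the control and 756 in the mutant, above the 455 and 378 of the met-1-labelled libraries. Genes listed for metal response were split as well. mtl-1, a metallothionein gene, was at 9153 FPKM in the control, at least 12063 in the RNA interference experiment and 3715 in the mutant. By contrast cdr-4 (89.1 and 310.4 FPKM) and cdr-2 (194 and 513), of a family named for a response to cadmium, were higher. Of 43 glutathione S-transferase transcripts 1 was higher and 0 lower.

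Among chaperones, 3 genes of mitochondria, picked out after their values were seen, were higher in the mutant. hsp-6 and hsp-60 encode the Hsp70 and the chaperonin of the mitochondrial matrix and are the usual reporters of the mitochondrial unfolded protein response, and dnj-10 encodes a DnaJ protein of the same compartment. hsp-6 was at 119.7 FPKM in the control, 87.6 in the untreated group, 132 and 125 with L4440, 138 and 125 in the met-1-labelled libraries and 331 in the mutant. The summed hsp-60 transcripts were at 93.1 and 250.0 FPKM and the summed dnj-10 transcripts at 29.7 and 79.1 in control and mutant. The other hsp-6 values lay within 87.6 to 138 FPKM. These genes belong to a list of 72 heat shock and chaperone transcripts of which 8 were higher (11.1%, beside 8.62% over all) and 1 lower, with a median of 0.10. Summed per gene symbol, 4 of 55 were higher and 0 lower. Among 55 transcripts of oxidative phosphorylation 3 were higher (5.45%, below the 8.62% over all) and 0 lower, with a median of 0.27. They were the cytochrome oxidase assembly genes cox-15 (15.1 and 41.7 FPKM) and cox-17 (109.9 and 272), and cyc-2.2, a cytochrome c gene listed at 0 in the control and at 7.03 in the mutant. The median of this list is smaller than the difference of -0.59 between untreated animals and the control. At day 12 hsp-6 was at 240.2 FPKM in the control and 302 in the mutant, and hsp-60 NM_065028 at 97.2 and 91.3 FPKM.

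Cuticle collagens were higher in 14 of 96 transcripts (14.6%, beside 8.62% over all) and lower in 1, with a median of 0.29. Of the 96, 20 passed the filter through the mutant alone. Among the 75 at 1 FPKM or more in both strains 12 were higher and 1 lower, with a median of 0.20. Over all such transcripts 3.11% were higher. Collagens are secreted by the hypodermis and form the exoskeleton in pulses at each moult. col-149 was at 6.04 FPKM in the control, between 2.63 and 6.46 in the RNA interference experiment and 36.3 in the mutant, and col-179 at 563, between 243 and 269, and 1313 FPKM. The exception, col-183, was at 20.3 FPKM in the control and 2.74 in the mutant. Hypodermis markers, given below, had a median of 0.26. Their list itself holds collagen genes, col-12 among them, so it is no separate measure of that tissue. The part of the hypodermis in the collagen levels was not tested. At day 12 the same list of collagens had 0 higher and 15 lower. Members of this family are similar in sequence, and the division of reads among them is uncertain.

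Genes of the pals family were called higher in the mutant at day 2, and in larger number at day 12. Several pals genes are induced by microsporidia and by the Orsay virus, and pals-5 is the reporter of this intracellular pathogen response. The list of F-box, MATH and BATH domain genes, which encode ubiquitin ligase adaptors, also holds the pals genes. In it 21 of 216 transcripts were higher (9.72%, beside 8.62% over all) and 0 lower, with a median of -0.02. Of the 216, 29 passed the filter through the mutant alone, so this share is no more than a description. Among the 187 at 1 FPKM or more in both strains 11 were higher and 0 lower, with a median of -0.06. The pals family was singled out after its values were seen. Of 36 pals transcripts 11 were higher and 0 lower, with a median of 0.65, and 28 lay above the median of all transcripts. Of the 36, 9 passed the filter through the mutant alone; among the other 27, 7 were higher and 0 lower, with a median of 0.36. pals-5 was at 2.64 FPKM in the control, 2.89 in the untreated group, between 0.483 and 1.47 in the RNA interference experiment and 9.82 in the mutant. pals-14 was at 23.6 FPKM in the control, between 7.22 and 13.2 in that experiment and 61.8 in the mutant. The repressor of the response, pals-22, was within 2-fold (8.75 and 8.54 FPKM). At day 12, 21 of the 36 were higher and 0 lower, with a median of 1.11, and pals-14 was then at 14.9 and 426 FPKM. Of the fbxa transcripts in the same list, 8 of 114 were higher at day 2, a smaller share than the 8.62% over all. At day 12, 22 were higher, beside 5.82% of all day 2 transcripts. Of the 114, 13 passed the day 2 filter through the mutant alone, and among the other 101, 4 were higher, with a median of -0.15.

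**Figure D4:**
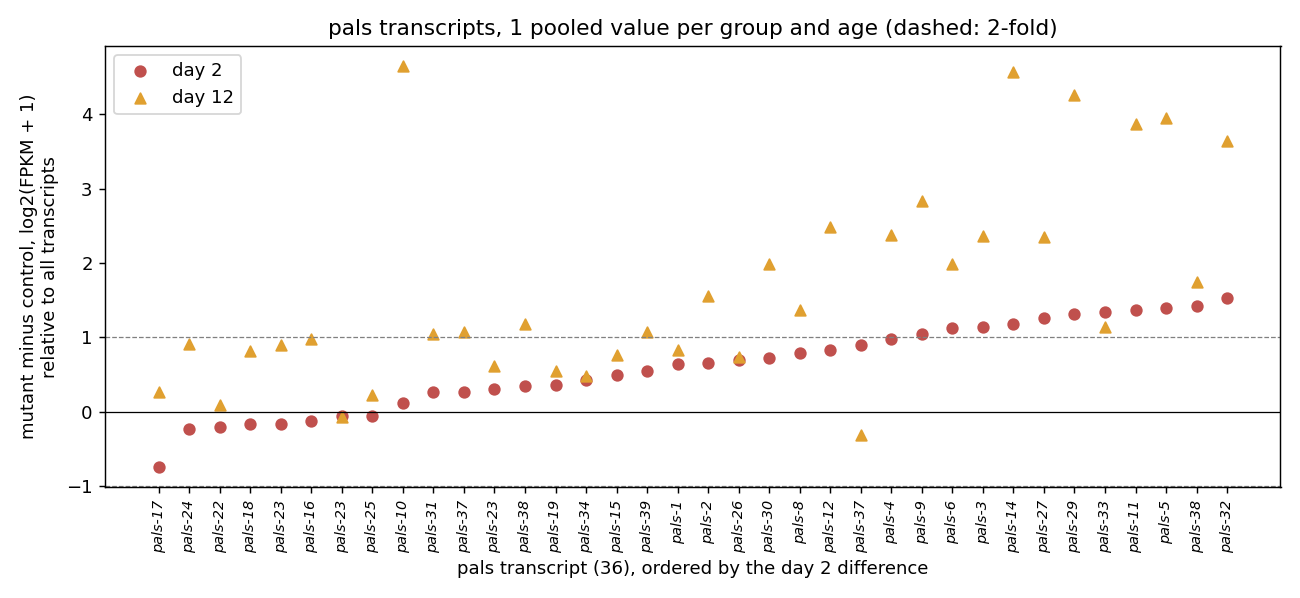
Difference between mutant and control in log2(FPKM + 1), relative to all transcripts, for the 36 pals transcripts at day 2 (circles) and day 12 (triangles), ordered by day 2. At day 2, 11 lie above the dashed 2-fold line and none below the lower one, and at day 12, 21 lie above it.

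Most cell-type and housekeeping lists were close to the median. Their counts stand beside 8.62% higher and 5.55% lower over all transcripts. Of 35 proteasome and 23 vacuolar ATPase transcripts 0 were called. Of 86 ribosomal protein transcripts 1 was higher and 2 lower, and of 219 nuclear hormone receptor transcripts 4 and 6. Markers of body wall muscle had 3 higher and 0 lower of 40, of the pharynx 1 and 2 of 82, of neurons 2 and 2 of 48, and of the intestine 0 and 1 of 23, with medians between -0.08 and 0.21. Hypodermis markers had 1 higher and 0 lower of 17, with a median of 0.26, and the 1 was the collagen gene col-12. The 25 transcripts of their list, collagens included, summed to 3292 FPKM in the control, 5368 in the mutant and between 2181 and 2489.5 FPKM in the RNA interference experiment. Neuropeptide genes had 2 each way of 68. Chemoreceptor transcripts had 10 higher (11.2%) and 1 lower (1.12%) of 89, but 28 of the 89 passed the filter through the mutant alone. Among the 55 at 1 FPKM or more in both strains 4 were higher and 1 lower. For the lists with medians beyond 0.30 in size, the difference between the L4440 libraries was at most 0.28. The sperm, germline and histone lists among them hold many transcripts that passed the filter through the mutant alone. For many other lists the difference between the L4440 libraries was wider than their own medians. Examples were the insulin-like (-0.73 and -0.11), neuropeptide (-0.60 and -0.24), intestine (0.36 and -0.08), glutathione S-transferase (0.32 and 0.05) and proteasome (0.31 and -0.02) lists.

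**Figure D5:**
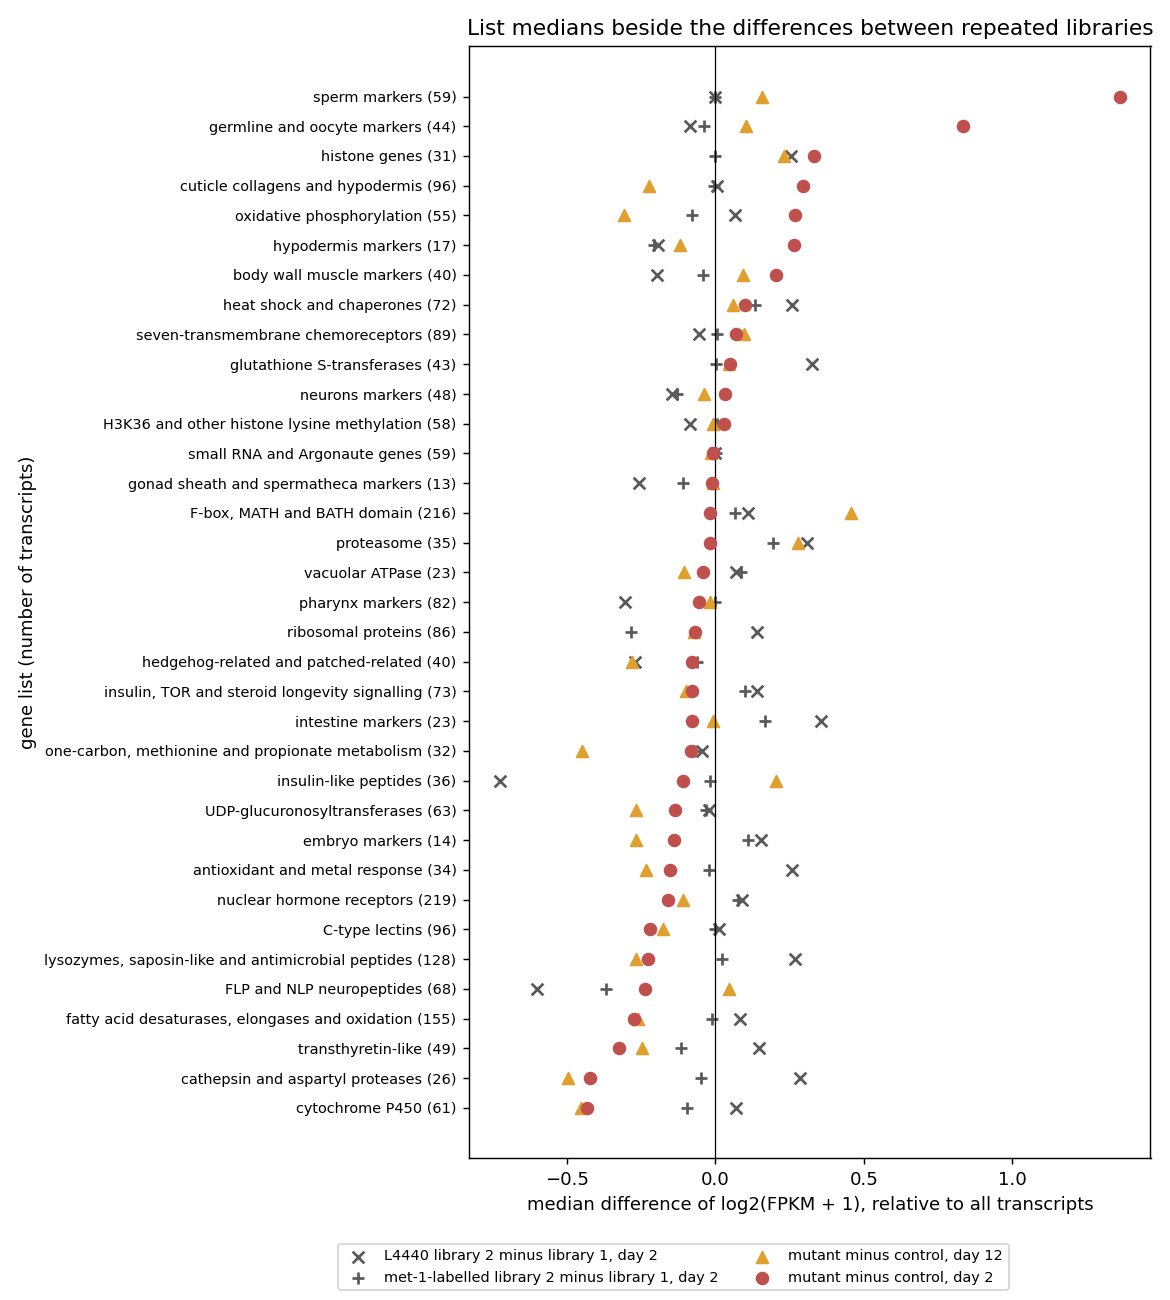
Median difference of each gene list (number of transcripts in brackets) in log2(FPKM + 1), relative to all transcripts: circles mutant minus control at day 2, triangles at day 12, crosses and plus signs the second minus the first library of L4440 and of met-1-labelled animals. Sperm (1.36) and germline markers (0.83) lie apart from the rest, but 36 of 59 and 20 of 44 of them passed the filter through the mutant alone. Among those at 1 FPKM or more in both strains the medians were 0.14 and 0.23. Cytochrome P450 (-0.43) and proteases (-0.42) lie at the lower end of the lists drawn at both ages. The vitellogenins, with just 2 transcripts, are not drawn (-0.27 at day 2 and -1.69 at day 12).

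Some single transcripts stood out without belonging to a list. The neighbouring genes Y39B6A.9 and Y39B6A.10 were higher in the mutant at both ages. Y39B6A.9 was at 3.49 FPKM in the control, 1.64 in the untreated group, between 0.960 and 1.57 in the RNA interference experiment and 69.6 in the mutant, and at day 12 it was at 3.94 and 39.2 FPKM. Y39B6A.10 was at 1.34 and 33.2 FPKM at day 2 and at 1.23 and 21.02 at day 12. Both kept the mutant apart from every other value. Of protein-coding transcripts that no source used here names, and among those above 0 in both strains and at 10 FPKM or more in one, the widest differences were NM_001270140, at 0.244 and 67.2 FPKM, and NM_001267195, at 10.3 and 0.00461 FPKM.

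Some of the widest differences moved between transcripts of 1 gene or came from values listed at 0. The linker histone gene hil-7 had its transcript NM_068626 at 16.0 FPKM in the control and 0.0490 in the mutant, but the gene summed to 16.0 and 10.8 FPKM. The protein-coding transcript M02E1.3 was listed at 0 in the control and at 1226 FPKM in the mutant, with 0 in 3 of the 4 libraries of the RNA interference experiment and 2644 in the other, so it also varied between repeats of 1 group. The non-coding transcript R04E5.15 was listed at 0 in the control and at 17189.6 FPKM in the mutant, and C36F7.10 at 839 and 0. In all, 730 of the 18090 transcripts were listed at 0 in the control and 373 in the mutant. A listed 0 may also stand for an estimate that failed, so these are given as levels, and any difference computed from them depends on the pseudocount.

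The comparison at day 12, from other libraries of the same strains, had 1586 of 18449 transcripts higher (8.6%) and 1132 lower (6.14%). Of the 1559 transcripts higher at day 2, 386 (24.8%) were also higher at day 12 and 135 (8.66%) lower, beside 5.82% and 4.63% of all day 2 transcripts called each way. Of the 1004 lower at day 2, 199 (19.8%) were lower at day 12 and 137 (13.6%) higher. Lysozyme, saposin and antimicrobial transcripts had 19 lower and 6 higher at day 12, cytochrome P450 transcripts 9 and 1, and lysosomal proteases 8 and 0. Only a part of these were the transcripts that were lower at day 2: 12 of 28 of the first list, 4 of 12 of the second and 3 of 7 of the third were lower at both ages. Sperm markers had 7 higher and 2 lower at day 12, with a median of 0.16. Individual genes differed. mtl-1 (15615 and 6872 FPKM) and lys-7 (15205 and 5208) remained lower in the mutant at day 12, cpr-4 was at 351 and 481 FPKM, and nspd-1 was listed at 0 in the control and at 1.14 in the mutant.

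The RNA interference experiment provided the one replicated test at day 2. The 2 met-1 transcripts did not follow its labels alike. NM_182042 was at 5.82 and 2.13 FPKM with L4440 and at 7.76 and 27.5 FPKM where the label is met-1 RNA interference, so it was not lower there. NM_058939 was at 1.98 and 2.90 FPKM with L4440 and at 5.27 and 0.00193 in the met-1-labelled libraries. Neither passed the test given below, so a depletion of met-1 mRNA by the interference was not shown. Directions from these libraries are therefore given by label only. In limma's moderated test with Benjamini-Hochberg adjustment, 16 of 18572 transcripts (0.0862%) were higher and 14 (0.0754%) lower in the met-1-labelled libraries. Of the 30, 25 were non-coding, and without any 1 of the 4 libraries the number was between 2 and 6. Of 97 transcripts singled out in the mutant by the naming rule and measured here, 0 passed the test with limma, the smallest adjusted p was 0.363, for clec-53, and 9 had an unadjusted p under 0.05. The higher transcripts of the mutant had a median difference of 0.03 in this experiment (983 tested, 5 called) and the lower ones -0.08 (749 tested, 5 called). C01A2.9 was lower by 3.26 ± 0.20 (SE) with limma (adjusted p = 0.0117, 2 libraries per group), and was listed at 0 in the control and at 13.3 FPKM in the mutant.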

How the data were processed

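The authors deposited FPKM values per RefSeq transcript in a control table and a mutant table, 1 value per age for both libraries together, with a status for each estimate, per the file headers. An isoform table of untreated animals holds pooled FPKM, and its log2 fold changes and p-values, deposited by the authors, were not used. A table of the RNA interference experiment holds 1 value per library for 8 libraries, whose unit the headers do not give; they were taken as FPKM. Cuffdiff, BWA, CASAVA 1.8, TopHat2 and TopHat are named without a role, per the submitters' processing notes. Genome build and strand setting: not given in the sources used here, so overlapping and antisense genes cannot be separated. Read depth is unknown, and the labels do not say whether replicates were separate cultures, so a p-value reflects just these samples' spread, possibly a technical one.

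The tables were joined by RefSeq identifier. Transcripts of status OK in both strains with at least 1 FPKM in one were kept, and 1112 without that status were left out. The pseudocount was 1. With 1 value per group no test between strains was made; 2-fold (1 on the log2 scale) served as the call. Symbols came from the RefSeq gene table (41331 identifiers) and from the isoform table (2934), and 2706 had none. The RNA interference libraries of both ages were fitted together with limma 3.58.1 in R 4.3.3 (trend, Benjamini-Hochberg, 0.05), a step tested on simulated data; the rest used Python 3.11.15 with pandas 2.3.3 and numpy 2.4.6, and matplotlib 3.10.9. Replicate numbers did not pair the libraries.

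Named transcripts, 117 in all, were those above 0 in both strains and at 10 FPKM or more in one with the widest differences (12 protein-coding and 4 non-coding each way), the highest listed at 0 in one strain (4 protein-coding and 2 non-coding each way), up to 2 called genes each way per list, or else the most abundant, and the H3K36 methylation genes. The transcripts and the 36 gene lists were chosen with earlier results of these data known. Promoter sequences were not analysed here. Alternatives were another pseudocount (0.1 or 5), no filter, 10 FPKM, other scalings, sums per gene symbol, protein-coding identifiers alone, and for the replicated test the replicate block, day 2 alone and each library left out.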

Additional observations from a re-analysis of the deposited data

Results flagged for a closer look

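Named transcripts called in opposite directions at day 2 and day 12 numbered 10. The difference between the ages was not tested, and each value rests on 1 pooled estimate per group. In log2(FPKM + 1) relative to all transcripts, the difference between mutant and control was 4.65 at day 2 and -6.28 at day 12 for Y39B6A.34, 10.09 and -10.79 for M02E1.3, 6.89 and -6.63 for F10C1.8, and 5.99 and -1.16 for NM_001267302. These 4 include values listed at 0 in one strain. In the other direction, the difference was -7.07 at day 2 and 6.25 at day 12 for Y105C5A.1285, -7.06 and 2.41 for NM_001268791, and -5.87 and 2.90 for ocr-1, each listed at 0 in the mutant at day 2. Where a value is listed at 0 the difference depends on the pseudocount and is not a fold. For 2 detoxification genes above 0 in both strains at both ages, ugt-31 had -1.17 at day 2 (32.2 FPKM in the control and 15.6 in the mutant) and 1.52 at day 12 (3.57 and 13.8), and gsto-1 had 1.28 (11.9 and 34.4) and -1.25 (13.7 and 5.98). For met-1 NM_182042 the difference was 1.12 at day 2 and -2.22 at day 12, where it was at 3.47 FPKM in the control and 0.0866 in the mutant.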

How the results depend on the processing

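The counts depended mainly on how transcripts with few reads were treated. The 1559 higher transcripts at day 2 became 2346 with a pseudocount of 0.1, 530 with a pseudocount of 5 and 516 where 10 FPKM was required; the 1004 lower ones became 459 with a pseudocount of 5, 421 at 10 FPKM and 608 among protein-coding identifiers centred on their own median. At day 12 the higher and lower counts, 1586 and 1132, became 568 and 453 with a pseudocount of 5, 626 and 467 at 10 FPKM, and 967 and 687 for protein-coding identifiers; these day 12 alternatives, and leaving out germline markers, were chosen after seeing the data. nhr-101 was higher by 1.43 as a transcript and had -0.48 when summed per gene symbol; the cause was not tested. The 30 calls of the replicated test became 19 with a pseudocount of 0.1, 3 at 10 FPKM, 8 in a fit of the day 2 libraries alone and 2 with the replicate block, whose numbers correlated by 0.13 at day 2. They became 5 without the first L4440 library, 2 without the second, 2 without the first met-1-labelled library and 6 without the second, where the lone library is assumed to vary like the other groups. Of the remaining values, 1191 moved by less than the replicate SD of the RNA interference libraries (that of the transcript or, for list medians, the median one), since mutant and control have none, and 273 by more. No paired analysis was possible because mutant and control have 1 pooled value each, and libraries could not be left out there. The promoter alternative was not run.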
